A study of Caenorhabditis elegans with 4 samples.

Results

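The regions described here are the NHR-28 binding peaks that lie on the X chromosome of Caenorhabditis elegans embryos. They are every row placed on X in the 3 deposited peak lists, 253 of 3487 rows in all. Of these, 44 of 649 peaks belong to the list of ChIP replicate 1, 37 of 495 to the list of ChIP replicate 2 and 172 of 2343 to a list for the series as a whole. Overlapping rows of different lists make 173 distinct X sites. No values of the peaks were used to choose them.

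NHR-28 is a member of the nuclear hormone receptor family, transcription factors that bind DNA through a zinc-finger domain and that in many cases respond to small lipophilic ligands. The family is greatly expanded in nematodes. The X chromosome of C. elegans is present as a pair in hermaphrodites and singly in males, and in hermaphrodite embryos the dosage compensation complex loads onto it and lowers its transcription. X also carries few genes with germline-enriched expression, and its gene density is more even from end to end than that of the autosomes.

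The animals were embryos of strain OP317, with the sex given as hermaphrodite, grown at 20 degrees Celsius. They carry the mutation unc119(ed3) and wgIs317, an integrated transgene delivered by bombardment that holds unc119 and an nhr-28 fusion with TY1, EGFP and FLAG tags. All 4 libraries share this genotype, so there is no untagged strain among them. The 2 ChIP libraries were collected with an antibody against GFP, and the 2 input libraries are DNA set aside before that step. Input values were not analysed here, so no input level stands beside any peak. The labels do not say whether replicates 1 and 2 came from separate cultures.

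Positions are on the WormBase build WS220. Each peak has a start, an end and a p-value or q-value of the peak caller PeakSeq, as the authors deposited it. That value is called the caller value here, and rank 1 is the lowest caller value of a list. Read depth is unknown, and ranks are read within a list of its own length. Peaks of 1 library are not replicates of each other, so differences between X and the autosomes below are descriptions without a test. Intervals are exact (Clopper-Pearson, 95%) and speak to counting error alone, as if each peak were an independent draw. Peaks of different lists count as partners when they share at least 1 bp. No genome of WS220 was at hand, so neither gene context nor sequence of the peaks is given.

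Counted over whole lists, X peaks were sparse, and they were scattered over the whole chromosome. X made up 6.78% of the replicate 1 list (interval 4.97 to 8.99%), 7.47% of the replicate 2 list (5.32 to 10.2%) and 7.34% of the series-level list (6.32 to 8.47%). The highest X peak end of any list, at 17.5 Mb, stood in for the length of the chromosome. On that footing X carried 9.82 series-level peaks per Mb, with 2.51 for replicate 1 and 2.11 for replicate 2. The 5 autosomes together carried 26.4, 7.35 and 5.57 peaks per Mb. The X share varied with rank. Among the strongest 200 series-level peaks it was 15.5% (interval 10.8 to 21.3%), and in ranks 1201 to 2343 it was 4.81%. Among the strongest 200 peaks of replicates 1 and 2 it was 10.5% (6.62 to 15.6%) and 9.5% (5.82 to 14.4%). Both of these replicate intervals include the share of the whole list.

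**Figure D1:**
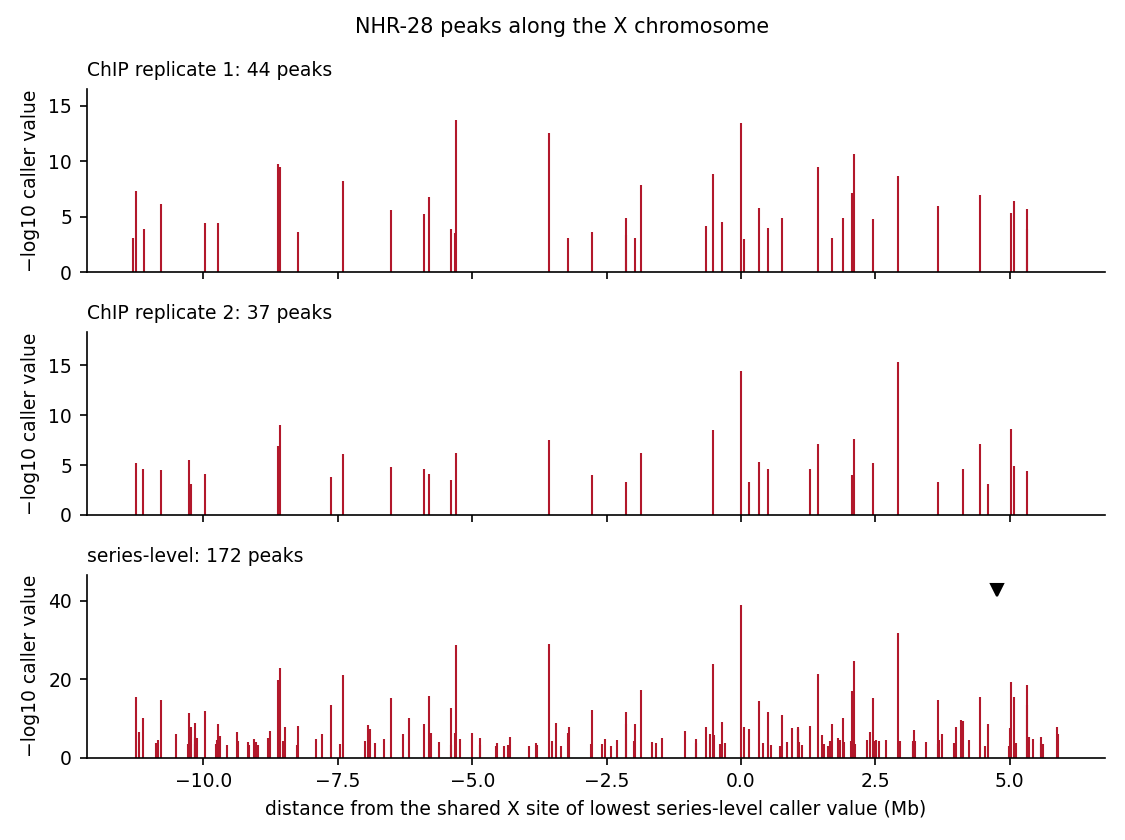
Each vertical line is 1 X peak, drawn at its distance in Mb from the X site of lowest series-level caller value among those in both replicate lists, and its height is the −log10 caller value in that list. The triangle marks the 36.8 kb interval, whose caller value is listed as 0. Lines occur over the whole span in each list, and the tallest lines of the replicate panels recur in the series-level panel, which holds 172 peaks.

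Every complete 1 Mb stretch of X held series-level peaks. The counts ran from 6 to 15 with a median of 10 over 17 stretches. The fullest stretch lay between 13 and 14 Mb, with 15 series-level peaks, 5 peaks of replicate 1 and 3 of replicate 2. Between 1 and 2 Mb there were 14 series-level peaks but 2 of replicate 1 and 3 of replicate 2, and 1 of the 14 was in both replicate lists. Between 16 and 17 Mb the series-level list had fewer peaks, 12, whereas the replicate lists had 5 each and 4 sites were in both. The stretch between 7 and 8 Mb held 8 series-level peaks and no peak of either replicate. The longest empty stretch was the same in both replicate lists. It ran from 6296745 to 8035989 in replicate 1 (1739 kb) and from 6296708 to 8036100 in replicate 2 (1739 kb), and 12 series-level peaks lay inside it. Its borders are 2 of the strongest X sites, described below.

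The next longest empty stretches of the replicate lists overlapped but did not share both borders. Where a border is a shared site, the match follows from that site being in both lists. Replicate 1 had none between 9744026 and 10963635 (1220 kb) and none between 1881050 and 2996797 (1116 kb). Replicate 2 had none between 9743675 and 11093884 (1350 kb) and none between 1627292 and 2996891 (1370 kb). The stretches from 4209449 to 5085384 in replicate 1 and from 4209387 to 5085474 in replicate 2 nearly coincided. Those from 3371577 to 4209078 in replicate 1 and from 3036317 to 3969883 in replicate 2 were offset at both ends. The series-level list had peaks within all of these. Its own 5 widest gaps were much shorter. They ran from 10132743 to 10568363 (436 kb), from 8404815 to 8817962 (413 kb), from 4209449 to 4606248 (397 kb), from 7306715 to 7662703 (356 kb) and from 3371615 to 3697654 (326 kb).

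No preference for the centre or the outer parts of X could be read at these counts. The middle 50% of the span held 22 of 44 replicate 1 peaks (50%, interval 34.6 to 65.4%), 16 of 37 replicate 2 peaks (43.2%, 27.1 to 60.5%) and 78 of 172 series-level peaks (45.3%, 37.8 to 53.1%). All 3 intervals include 50%.

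Neighbouring X peaks were far apart. The median distance between neighbouring midpoints was 67.5 kb in the series-level list, 261 kb for replicate 1 and 340 kb for replicate 2. Over the 5 autosomes the medians were 21.3, 83.4 and 121 kb. Single autosomes ran from 17.7 kb on III to 29.0 kb on V in the series-level list, so X lay outside their range. The SD of the series-level distances was 0.911 times their mean on X, against 1.08 times on III, the lowest autosome, and 1.30 times on V, the highest. In this list the ratio was lower on X than on any of the 5 autosomes. It was also lowest on X in replicate 1 (0.973, against 1.08 on V, the next), but in replicate 2 it was 0.885 on X and 0.880 on III.

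**Figure D2:**
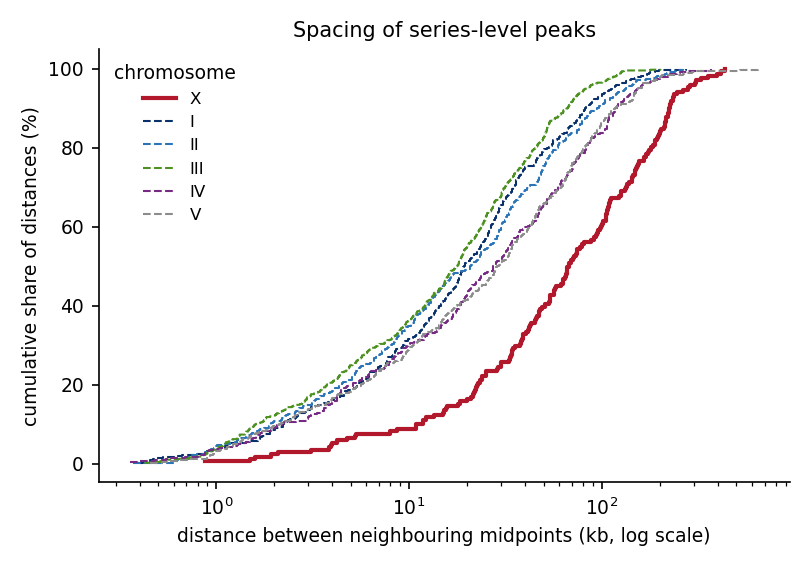
Cumulative share (%) of distances between neighbouring midpoints of series-level peaks, in kb on a log axis, with X as the thick line and each autosome dashed. The X curve lies to the right of all 5 autosomes over most of its range, with a median of 67.5 kb on X against 17.7 to 29.0 kb on the autosomes.

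Close pairs were few on X. In the series-level list 20 of 172 X peaks had another midpoint within 5 kb (11.6%, interval 7.25 to 17.4%), where the share over all chromosomes was 33.9% and on the autosomes 35.7%. In replicate 1 the number was 6 of 44 (13.6%, 5.17 to 27.4%), beside 19% over all chromosomes and 19.3% on the autosomes, both within the X interval. In replicate 2 it was 0 of 37, which allows a share of up to 8.11%, beside 11.9% over all chromosomes and 12.9% on the autosomes. The closest X midpoints of replicate 2 were 34.6 kb apart. A share of this kind depends on peak density, which is lower on X in all 3 lists.

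Chains of series-level X peaks with steps of at most 20 kb numbered 23 and held 50 peaks, and the other 122 peaks stood alone. Of the chains, 20 had 2 peaks, 2 had 3 and 1 had 4. The chain of 4 ran from 1445507 to 1454953, over 9.45 kb. Its peaks included those at 1454376 to 1454953 (rank 319 of 2343), 1445507 to 1446491 (rank 832) and 1446724 to 1447027 (rank 996). None of the 4 was in a replicate list. The chains of 3, at 12660990 to 12670788 and at 14804743 to 14819227, likewise had no peak in either replicate list. The densest groups of X peaks were thus series-level calls alone. Pairs that did hold a site of both replicate lists included 6292177 to 6296787, 11093838 to 11095737 and 16929429 to 16931694.

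Both replicates marked largely the same X sites. Of the replicate 1 X peaks, 30 of 44 had a replicate 2 partner (68.2%, interval 52.4 to 81.4%), beside 53.8% over all chromosomes and 52.7% on the autosomes. Of the replicate 2 X peaks, 30 of 37 had a replicate 1 partner (81.1%, 64.8 to 92.0%), beside 70.5% over all chromosomes and 69.7% on the autosomes. The autosomal share lies inside the X interval for replicate 2 and just inside it for replicate 1, so no difference could be read at these numbers. All 21 X peaks within the first 200 ranks of replicate 1 had a partner, as did 162 of 179 autosomal peaks (90.5%). Within the first 200 ranks of replicate 2, 18 of 19 X peaks had a partner, as did 165 of 181 autosomal peaks (91.2%). Beyond rank 200 the numbers in replicate 1 were 9 of 23 on X (39.1%) and 157 of 426 on the autosomes (36.9%). In replicate 2 they were 12 of 18 on X (66.7%) and 154 of 277 on the autosomes (55.6%).

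The series-level list held nearly every replicate X peak, namely 43 of 44 of replicate 1, beside 94.5% over all chromosomes and 94.2% on the autosomes. It held 37 of 37 of replicate 2, beside 96.4% over all chromosomes and 96.1% on the autosomes. The 1 exception was a weak replicate 1 peak at 293241 to 293626, rank 631 of 649 with a caller value of 8.50e-04. In the opposite direction 30 of 172 series-level X peaks were in both replicate lists (17.4%, interval 12.1 to 24.0%), beside 14.6% over all chromosomes and 14.4% on the autosomes. A further 13 were in replicate 1 only (7.56%, interval 4.09 to 12.6%), beside 11.4% over all chromosomes and 11.7% on the autosomes. In replicate 2 only were 7 (4.07%, 1.65 to 8.21%), beside 5.72% over all chromosomes and 5.85% on the autosomes. In neither list were 122 (70.9%, 63.5 to 77.6%), beside 68.3% over all chromosomes and 68.1% on the autosomes. For all 4 the autosomal share lay inside the X interval. The 3 lists are of 1 series and are not independent.

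At matched series-level rank the shares on X and on the autosomes lay further apart. In ranks 1 to 200 the share in both lists was 28 of 31 on X (90.3%, interval 74.2 to 98.0%) and 162 of 169 on the autosomes (95.9%, 91.7 to 98.3%). In ranks 201 to 400 it was 2 of 21 on X (9.52%, 1.17 to 30.4%) and 110 of 179 on the autosomes (61.5%, 53.9 to 68.6%). In ranks 401 to 600 it was 0 of 18 on X, which allows up to 16.7%, and 30 of 182 on the autosomes (16.5%). The intervals for X and the autosomes do not meet in ranks 201 to 400, while they overlap in ranks 1 to 200. Peaks matched in this way need not match in replicate caller value. Ranked among the sites found in every list, 24 of 30 X sites (80%) stood higher by the series-level list than by either replicate. Of 313 autosomal sites 49 (15.7%) did so. By replicate rank, the partner shares above were no lower on X than on autosomes, both up to rank 200 and beyond it.

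Taking series-level ranks 201 to 600 together, 2 of 39 X peaks were in both replicate lists (5.13%, interval 0.627 to 17.3%), against 140 of 361 autosomal peaks (38.8%, 33.7 to 44.0%). The single autosomes ran from 33.7% on I to 41.8% on II. In neither list were 21 of the 39 X peaks (53.8%, 37.2 to 69.9%), against 52 of 361 autosomal peaks (14.4%, 10.9 to 18.5%). The single autosomes ran from 10.5% on V to 20% on IV. X thus stood outside the range of the 5 autosomes in both measures, a difference that has no test here. The comparison holds series-level rank alone fixed, and whether the difference remains at matched replicate caller values was not tested. Replicate lists hold only caller values under 0.001, so a weaker site counts as absent. At sites in all 3 lists the series-level −log10 value exceeded the replicate sum by a median of 4.79 on X. On the autosomes that median was 1.08, so that result, given below, and this one are not independent. Beyond rank 800 the number of X peaks in at least 1 replicate list was 0 of 89, which allows up to 3.37%, against 130 of 1454 on the autosomes (8.94%, 7.52 to 10.5%). The lowest-ranked X peak found in any replicate list was at rank 625, whereas autosomal peaks found there reached rank 2133.

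**Figure D3:**
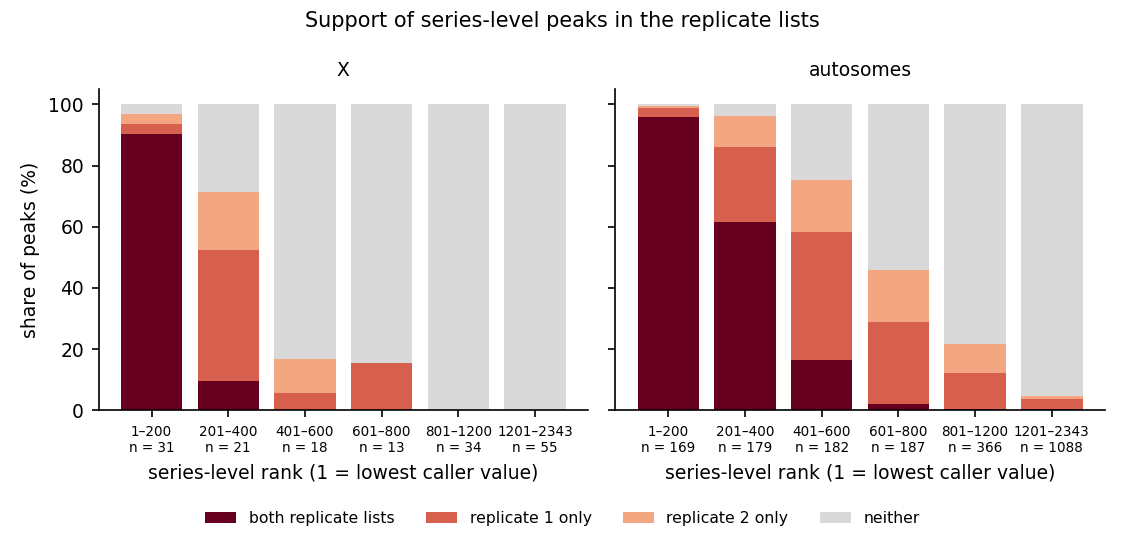
Share (%) of series-level peaks in each rank group that were found in both replicate lists, in replicate 1 only, in replicate 2 only or in neither, for X on the left and the autosomes on the right, with the number of peaks under each bar. In ranks 201 to 400 the share in both lists was 9.52% on X and 61.5% on the autosomes.

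Caller values of the sites found in all 3 lists were then compared between lists. For the 30 X sites the series-level −log10 caller value exceeded the sum of the replicate values at 29 and fell short at 1. The difference ran from -1.03 to 11.06. For 313 autosomal sites it was above 0 at 259 (82.7%), with a median of 1.08 and a range of -25.1 to 8.92. The X median was 4.79, and among single autosomes the medians ran from 0.71 on IV to 1.76 on I. Set against the pooled autosomes, the X median was the higher one at each level of the sum that held 5 or more X sites. With a sum of 8 to 12 the median difference was 4.11 for 14 X sites and 1.02 for 128 autosomal sites. With a sum of 12 to 16 it was 3.28 for 5 X sites and 1.40 for 62 autosomal sites, but 3.96 for the 9 of these on chromosome I, so at this level X lay within the range of the single autosomes. With a sum of 16 or more it was 6.66 for 9 X sites and 1.65 for 59 autosomal sites. The largest differences on X belonged to the sites at 11605391 (11.06), 8035984 (8.97) and 6296272 (8.81). The 1 negative difference belonged to the site at 5707795 to 5708128, of series-level rank 340, which stood at 217 in replicate 1 and at 216 in replicate 2.

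**Figure D4:**
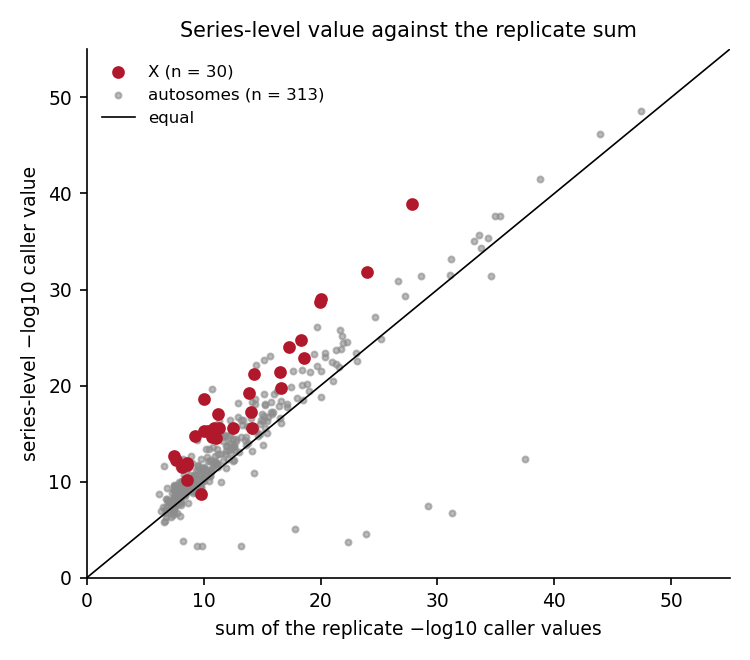
Series-level −log10 caller value against the sum of the replicate −log10 caller values for the 30 X sites and 313 autosomal sites found in all 3 lists, with the line of equal values. All X points but 1 lie above the line, and none is among the autosomal points far below it.

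Ranking only these 343 shared sites by each list in turn puts the lists on the same length. The median place of the 30 X sites was 101 by the series-level list, 136.5 by replicate 1 and 149 by replicate 2. The autosomal medians were 185, 178 and 175. X sites among the first 50 numbered 9 by the series-level list, 4 by replicate 1 and 3 by replicate 2. By the series-level list 24 of 30 X sites (80%) stood higher than by either replicate and 1 stood lower than by both. Of the 313 autosomal sites 49 (15.7%) stood higher and 73 (23.3%) lower. Replicate 1 placed 15 of the 30 X sites above their place in replicate 2, 14 below it and 1 at the same place.

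By series-level caller value, the first of the X sites found in both replicate lists lay at 11605391 to 11606412 (1022 bp). Its series-level rank was 5, with a caller value of 1.33e-39. Replicate 1 had it at rank 20 (3.94e-14) and replicate 2 at rank 14 (3.88e-15). The next, at 14525428 to 14526337 (910 bp), ranked 13 in the series-level list, 74 in replicate 1 and 8 in replicate 2. It led the X peaks of replicate 2, with a caller value of 4.94e-16, but stood ninth among those of replicate 1. The sites at 8035984 to 8036800 (817 bp) and 6296272 to 6296787 (516 bp) bounded the long empty stretch of the replicate lists. The first of them had series-level rank 19 and ranked 26 in replicate 1 and 78 in replicate 2. The second had series-level rank 20 and ranked 18 and 108, and it led the X peaks of replicate 1 with a caller value of 1.76e-14. The leading X site therefore differed between the replicates.

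The site at 13700574 to 13701089 had series-level rank 26 and ranked 43 in replicate 1 and 71 in replicate 2. The site at 11093838 to 11094322 had series-level rank 29 and ranked 67 and 56. A pair of strong sites lay near each other at 3035876 to 3036334 and 2996742 to 2997342. The first of the pair had series-level rank 37 and ranked 62 in replicate 1 and 46 in replicate 2, and its neighbour had series-level rank 55 and ranked 60 and 93. The site at 13046195 to 13046668 had series-level rank 49, with ranks of 63 and 85 in the replicates. The site at 4209044 to 4209449 had series-level rank 50, with ranks of 89 and 118. These 10 sites were within the first 89 ranks of replicate 1 and the first 118 of replicate 2. They lay between 2996742 and 14526337, so neither end of X held one of them. This rests on the cut at 10 sites, as the next site, at 16634660, lay nearer an end.

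The following 10 sites spread over more ranks in each replicate. In −log10 caller value the widest replicate differences lay among the first 10 instead. They were at 6296272 (13.75 in replicate 1 and 6.18 in replicate 2) and 14525428 (8.68 and 15.31). Such level differences depend on read depth, which is unknown, and have more room where the values are large. They are not read as lower replicate agreement. The narrow site at 16634660 to 16634946 (287 bp) had series-level rank 59 and ranked 212 in replicate 1 and 52 in replicate 2. The broad site at 16929429 to 16930422 (994 bp) had series-level rank 65 and ranked 195 and 240. Another site near this end of X, at 16681865 to 16682229, had series-level rank 104 and ranked 156 and 180. Replicate 1 gave lower rank numbers than replicate 2, also among the 343 shared sites alone, to the sites at 9743383 to 9744021 (series-level rank 77, replicate ranks 96 and 111), 13665175 to 13665722 (82, with 120 and 283), 5801105 to 5801581 (101, with 136 and 271) and 353188 to 353572 (103, with 116 and 163). The sites at 16056343 to 16056657, 5085377 to 5085852 and 14063765 to 14064143 ranked 105, 108 and 109 in the series-level list. Their ranks were 128, 196 and 267 in replicate 1 and 84, 193 and 166 in replicate 2. Over the 10 sites the ranks ran from 96 to 267 in replicate 1 and from 52 to 283 in replicate 2.

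Set against each other over the 30 X sites, replicate −log10 values had a Spearman's rho of 0.70 and a Pearson's r of 0.62, beside 0.65 and 0.82 over 313 autosomal sites. These describe sites that share libraries and caller. Among the 343 shared sites ranked by each replicate, the X sites with the largest differences in place were those at 15274797 to 15276016 (160 by replicate 1 and 305 by replicate 2), 16634660 to 16634946 (186 and 52) and 13665175 to 13665722 (112 and 239). With 1 library per replicate these differences have no test.

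**Figure D5:**
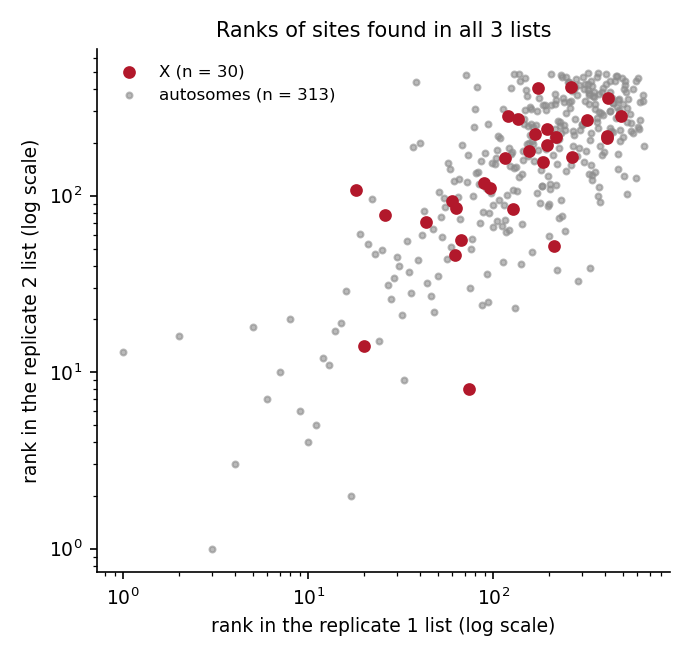
Rank in the replicate 1 list against rank in the replicate 2 list, both on log axes, for sites found in all 3 lists, with 30 X sites in red and 313 autosomal sites in grey. X points spread along the same diagonal as the autosomal points. The X site of best rank in replicate 1 ranked 18 there, and that of best rank in replicate 2 ranked 8.

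Edges of the shared X sites were close between replicates. Midpoints differed by a median of 20.5 bp and at most 180 bp on X, against a median of 23.5 bp on the autosomes. Starts differed by a median of 33 bp and ends by 32.5 bp. The replicate 1 interval was the wider one at 23 of 30 X sites (76.7%) and at 179 of 313 autosomal sites (57.2%). The replicate 1 interval lay wholly within the series-level interval at 27 of 30 X sites (90%) and at 282 of 313 autosomal sites (90.1%). The replicate 2 interval did so at 29 X sites (96.7%) and at 286 autosomal sites (91.4%).

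Median width was larger on X in all 3 lists. It was 361.5 bp on X against 246 bp on the autosomes in the series-level list, 368.5 against 289 bp in replicate 1, and 348 against 276 bp in replicate 2. Peaks under 50 bp numbered 4 of 172 on X (2.33%, interval 0.637 to 5.85%) and 170 of 2171 on the autosomes (7.83%, 6.73 to 9.04%) in the series-level list.

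Sites found in both replicate lists were the widest class on X and on the autosomes. Sites in both replicate lists had a median series-level width of 476.5 bp on X and 400 bp on the autosomes. Peaks in neither list had medians of 319.5 and 203 bp. For peaks in replicate 1 only the medians were close, at 307 bp on X and 310 bp on the autosomes, and for peaks in replicate 2 only they were 274 and 251 bp. The difference was also present at matched rank, with medians of 461 bp on X and 343 bp on the autosomes in ranks 201 to 400, and of 439.5 and 309 bp in ranks 401 to 600. In ranks 1 to 200 the medians were 480 and 465 bp.

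The strongest X peak of the series-level list was also its widest, an interval of 36805 bp at 16343198 to 16380002. Its caller value is listed as 0, and no peak of either replicate list lies inside it. The nearest replicate 1 peaks were 287 kb to its left and 255 kb to its right. The nearest replicate 2 peaks were 133 kb to the left and 255 kb to the right. The interval made up 33.4% of the 110 kb covered by series-level X peaks, and the other 171 peaks covered 73.2 kb. The gene nhr-28 itself lies on X, between the coding genes taf-3 and ace-1, in the RefSeq gene table of the assembly WBcel235. Positions of that assembly were not set against those of WS220, so whether the interval holds nhr-28 was not tested. The other gene of the transgene, unc-119, lies on chromosome III in that table.

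The next widest X peaks were far narrower than this interval, though wide beside the series-level X median of 361.5 bp. They lay at 9187187 to 9188480 (1294 bp), 4961413 to 4962632 (1220 bp), 15274797 to 15276016 (1220 bp) and 15606655 to 15607806 (1152 bp). Of these the one at 15274797 was in both replicate lists. The others ranked 2181, 993 and 422 and were in neither.

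After the wide interval, the strongest X peaks that neither replicate list held were at 5429000 to 5429748 (rank 238, caller value 5.49e-11), 15707227 to 15708005 (rank 268, 2.50e-10), 1454376 to 1454953 (rank 319, 1.16e-09) and 8155633 to 8156274 (rank 323, 1.38e-09). They were 749, 779, 578 and 642 bp wide. All 4 were wider than the median of the 30 X sites found in both lists. In ranks 201 to 400 the 6 X peaks in neither list had a median width of 695.5 bp, and the 7 autosomal ones 668 bp. Broad peaks without replicate support were thus found on both.

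X peaks seen in 1 replicate only began at rank 249 in replicate 1 and at rank 146 in replicate 2. The strongest replicate 1 peaks with no replicate 2 partner were at 13511826 to 13512060 (rank 249 of 649), 12362850 to 12363291 (rank 250) and 11252421 to 11252668 (rank 300). Their series-level partners ranked 242, 210 and 307. The strongest replicate 2 peaks with no replicate 1 partner were at 1344883 to 1345178 (rank 146 of 495), 12890007 to 12890399 (rank 210) and 15741864 to 15742104 (rank 215). Their series-level partners ranked 203, 379 and 281.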

How the data were processed

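Peaks were called with PeakSeq on the build WormBase WS220, per the file headers and a column of the deposited files. The PeakSeq version, aligner, read filters, use of the input libraries and any pooling of reads for the series-level list remain not given in the sources used here. Each list gives, as deposited by the authors, start, end and a p-value or q-value per peak, all under 0.001. From these, widths, midpoints, ranks, −log10 values, overlaps (at least 1 bp), spacing and 1 Mb counts were computed with Python 3.11.15, numpy 2.4.6, pandas 2.3.3 and scipy 1.17.1. The caller value listed as 0 has no −log10 value. The overlap function was tested on shifted copies of replicate 1 intervals, and the spacing function on a small made-up set of peaks.

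Samples were grouped by their titles. No test across samples was possible with 2 ChIP libraries and 1 condition, so shares carry 95% exact Clopper-Pearson intervals and the limit that a count of 0 allows is 3 counts of the total. The X peaks, the lists and the measures were chosen with earlier results of these data known. Peaks named are the 20 strongest X sites in both replicate lists, the 5 strongest in neither, the 3 strongest of each replicate without a partner in the other, the 3 largest differences between replicates, the 5 widest peaks and gaps, the densest group within 20 kb and each replicate peak missing from the series-level list. The replicate differences were planned on ranks of the whole lists and are given on places among shared sites, since the lists differ in length. That change, chains and sites bounding a stretch were chosen after their values were seen. Gene context and sequence were left out, as the gene table at hand is of WBcel235.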

Additional observations from a re-analysis of the deposited data

How the results depend on the processing

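Of 49 values under other settings, 35 counted as unchanged and 14 as moved. A share counted as unchanged inside the counting interval of the main value. Spacing and width did so when the change was under the SD of the replicate-list medians. Other values did so within a set fold of the main value. The rule was loose for spacing, where 110 kb in the stronger 50% counted as unchanged beside 67.5 kb. Keeping caller values at or under 1e-05 gave an X share of 10.1%, a median spacing of 155 kb, 5 peaks per Mb in the median bin and a median width of 454 bp. The stronger 50% of each list gave an X share of 9.74% and a median width of 412 bp. Widening the neighbour distance to 20 kb raised the share of X peaks with a neighbour to 29.1%. Without ChIP replicate 1 or 2 in turn, using the remaining list, the X share was 6.78 to 7.47%, the spacing 261 to 340 kb, the median bin 2 peaks per Mb in both, the width 348 to 368.5 bp and the middle 50% 43.2 to 50%. Series-level X peaks found in the remaining list were 21.5 to 25%, and in ranks 201 to 600 they were 20.5 to 30.8% on X against 52.4 to 72.0% on the autosomes. Replicate overlap on X ran from 65.2 to 68.2% for replicate 1 and from 78.4 to 88.2% for replicate 2 over stricter overlap, midpoint distance and threshold. The median series-level excess on X ran from 4.35 to 4.79. Alternatives on ranks 201 to 600, the middle 50% and rank without narrow or very wide peaks were added after seeing the data. No paired analysis was possible because the input libraries have no peak values among those analysed. Gene context and sequence alternatives were not run. The read depth is unknown and sets no limit that could be computed.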
